A study of Mus musculus with 10 samples.

Results

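The 8 aquaporin genes Aqp1, Aqp3, Aqp4, Aqp5, Aqp7, Aqp8, Aqp9 and Aqp11 were followed on 10 mouse expression arrays. Members were all probe sets that the platform annotation assigns to these symbols, 17 of 45037 probe sets, or 8 of 18193 genes. The animals were F2 offspring of a B6 by BALB cross. Groups were read from the sample titles: 5 cystic fibrosis knockouts coded H, 3 cystic fibrosis knockouts coded L, and 2 controls, which carry neither code. What H and L stand for is not spelled out, although the series title speaks of variable weight. The sources used here do not state which Cftr allele was used, on which strain it was made, how old the animals were or what they ate. The titles also hold the letter M (6 arrays) or F (4 arrays) and an animal number. These numbers form 2 blocks: 3 knockouts and both controls have lower numbers, and the other 5 knockouts have upper numbers. Lung is the labelled tissue, but the title of the series is about the intestine.

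Aquaporins are membrane channels that let water follow osmotic gradients across epithelia. Some, the aquaglyceroporins, also carry glycerol and other small solutes, and several let hydrogen peroxide pass. In the gut they sit in different cells: Aqp8 and Aqp7 in absorptive surface cells, Aqp3 on the basolateral side of epithelial cells, Aqp4 in basolateral membranes of crypt cells in rat, and Aqp1 mainly in the endothelium of vessels and lacteals. Cftr, the channel missing in these mice, secretes the chloride and bicarbonate that water follows into the gut and airway lumen.

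Every value below is a deposited probe set intensity on a linear scale, which has no unit. Array medians lay between 18.4 and 18.8, so values near or under 18 lie close to background. Levels are compared between arrays, because probe sets bind with different strength. Marker sums and rankings by brightness do mix probe sets, so strongly binding probe sets weigh most in them. Markers of intestinal epithelium were bright on all arrays (summed intensity of 8 enterocyte markers 20379 to 34730), and markers of lung epithelium were also present (7 alveolar type 2 markers, 2113 to 6769). In such bulk RNA fewer cells of a type and less RNA per cell cannot be told apart. Cftr was 19.7 to 35.4 in the 8 knockouts and 131 and 137 in the controls, so all 8 arrays titled knockout were below both controls.

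Aqp4, a water channel of the basolateral membrane, was higher in the knockouts. Its brightest probe set read 283, 146, 238, 137 and 202 in knockout H replicates 1 to 5 and 76.9, 117 and 232 in knockout L replicates 1 to 3, against 35.4 and 46.4 in the controls. All 8 knockouts lay above both controls, and the knockouts themselves spread widely, with knockout H replicate 1 highest and knockout L replicate 1 lowest. The means were 179 ± 70.3 in knockouts (SD, n = 8) and 40.9 ± 7.78 in controls (n = 2). Adjusted for the number range and the letter, the log2 difference, taken on log2(intensity + 16), was 1.89 ± 0.43 (SE), which is 3.71-fold (limma adjusted p = 0.0454, 95% interval 0.91 to 2.87). Since no control has an upper number, this estimate rests on the 3 knockouts and 2 controls there. A fit of the lower range alone, on these same arrays, gave 1.87 ± 0.19 (SE; limma adjusted p = 0.00566). It adds no separate support, and its smaller SE leaves out the spread of the knockouts with upper numbers. Groups that do not overlap in this direction were seen for 10% of all genes tested.

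The other probe sets of Aqp4 gave the same order of groups. The second, with values of 70.8 to 315 in the knockouts and 25.6 and 37.2 in the controls, differed 5.01-fold in its means. The third was dimmer, 17.6 to 36.9 in the knockouts and 15.3 and 12.0 in the controls, which is under the array medians in the controls. On each of the 3 probe sets all 8 knockouts exceeded both controls. The probe sets also ranked the knockouts alike: over these 8 arrays their pairwise Pearson correlations were 0.84 to 0.93 on the log2 scale, a description of repeated readings of 1 gene in the same RNA. When every probe set of the array was tested separately, the log2 differences of the 3 were 1.89, 1.73 and 0.57 and none passed (limma adjusted p = 0.1, 0.15 and 0.158).

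The call of Aqp4 was close to the threshold. It was lost when knockout H replicate 4 or 5, knockout L replicate 2 or 3, or either control was left out, with limma adjusted p-values of up to 0.279 and a log2 difference between 1.69 and 2.04 in all 10 such fits. A two-sided exact permutation test of the plain log2 means gave p = 0.0222, the smallest that 8 against 2 arrays allow.

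**Figure D1:**
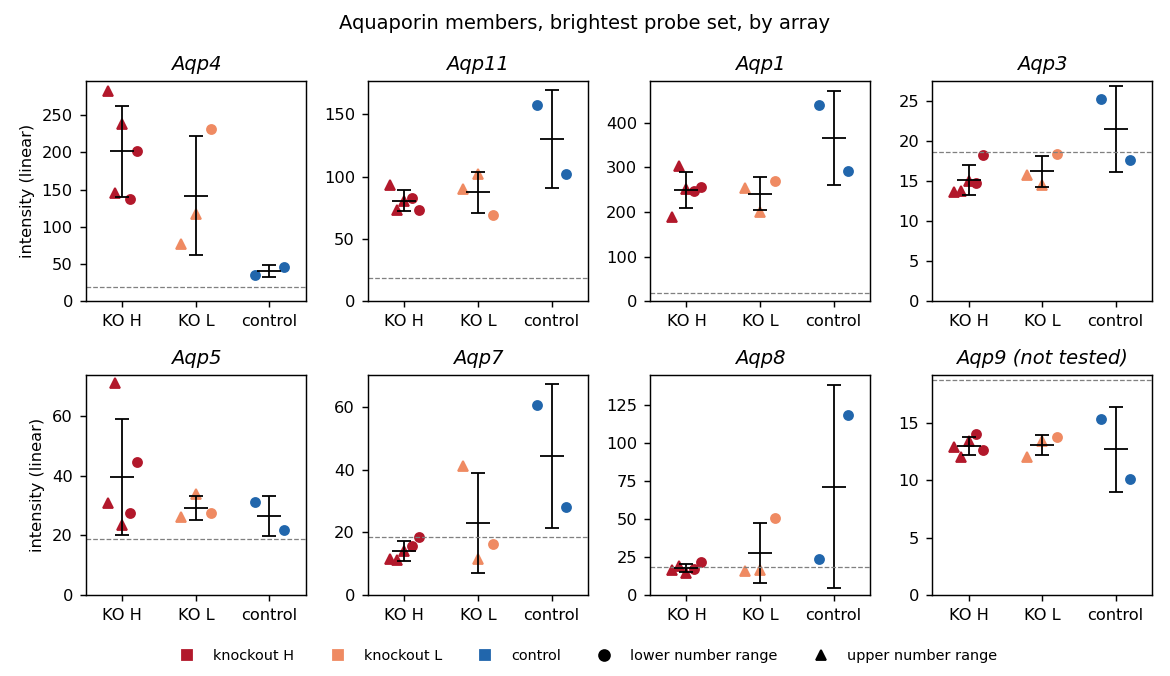
Intensity (linear scale, no unit) of the brightest probe set of each of the 8 aquaporin genes on each of 10 arrays, with knockout H (n = 5), knockout L (n = 3) and control (n = 2) side by side. Points are arrays, circles the lower and triangles the upper number range, black bars the mean ± SD of a group, and the dashed line the median of all values (18.7). Aqp4 is above both controls in all 8 knockouts, Aqp11 is below both, and the high values of Aqp8 and Aqp7 come from single arrays.

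**Figure D2:**
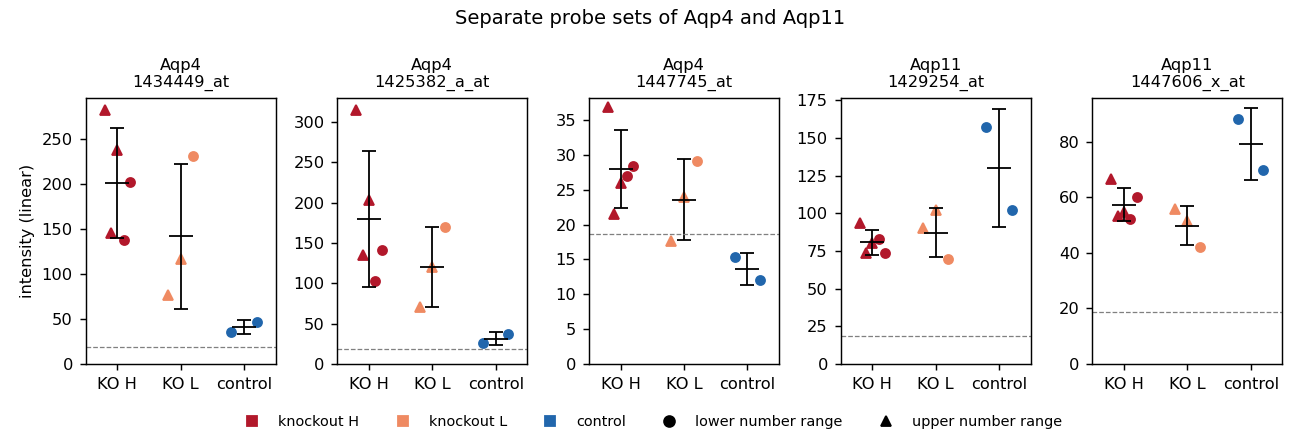
Intensity (linear scale, no unit) of the 3 probe sets of Aqp4 and of the 2 brighter probe sets of Aqp11 by array, with symbols, bars and dashed line for groups, number range, mean ± SD and median of all values. The 3 Aqp4 probe sets place all 8 knockouts above both controls, and the 2 Aqp11 probe sets place all 8 below both.

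Aqp11, an unusual aquaporin of the endoplasmic reticulum whose loss causes polycystic kidneys in mice, was lower in the knockouts. It read 93.5, 73.4, 80.6, 82.7 and 73.6 in knockout H replicates 1 to 5 and 90.2, 102.0 and 69.6 in knockout L replicates 1 to 3, against 158 and 102.2 in the controls. All 8 knockouts lay below both controls, but knockout L replicate 2 and control replicate 2 were nearly equal. Values averaged 83.2 ± 11.3 in knockouts (SD, n = 8) and 129.9 ± 39.2 in controls (n = 2). After adjustment the log2 difference was -0.69 ± 0.13 (SE; limma adjusted p = 0.0254, 95% interval -0.99 to -0.39), which is 1.62-fold lower. In the lower number range alone, on which the adjusted estimate also rests, it was -0.70 (limma adjusted p = 0.0304). That fit adds no separate support. Groups that do not overlap with the knockouts lower were seen for 11.7% of all genes tested.

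A second Aqp11 probe set read 42.0 to 66.5 in knockouts and 88.2 and 69.8 in controls, again without overlap. The third stood between 11.3 and 15.1 on all 10 arrays, under the array medians. On the 2 probe sets above background the group means were 1.56 and 1.45 times lower in the knockouts. Its call was lost without knockout H replicate 4, knockout L replicate 3 or either control (log2 difference -0.47 to -0.88, limma adjusted p of up to 0.28).

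The letters upstream of Aqp11 are shown beside those of Aqp3 and Aqp8, whose values were lower in most knockouts without passing, because the 3 regions differ in composition. Each run is the 250 bases before a transcript start in RefSeq, and the capitals mark matches on either strand to TATAAA (the TATA box), TTTAT (core of the intestinal factor CDX2), AGATAA (core of GATA factors) or ACGTG (core of the hypoxia response element).
Aqp11 (GRCm38.p6, chr7:97738248-97738497, minus strand): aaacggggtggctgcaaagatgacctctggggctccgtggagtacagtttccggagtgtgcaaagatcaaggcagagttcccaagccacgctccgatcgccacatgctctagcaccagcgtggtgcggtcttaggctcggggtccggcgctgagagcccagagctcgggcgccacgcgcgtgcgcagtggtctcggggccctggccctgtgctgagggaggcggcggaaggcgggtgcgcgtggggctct
Aqp3 (GRCm38.p6, chr4:41098184-41098433, minus strand): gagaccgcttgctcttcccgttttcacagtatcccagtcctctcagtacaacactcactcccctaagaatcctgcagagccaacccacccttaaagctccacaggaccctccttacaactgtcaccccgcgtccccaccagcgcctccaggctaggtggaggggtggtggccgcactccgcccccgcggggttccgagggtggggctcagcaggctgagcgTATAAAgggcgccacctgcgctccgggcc
Aqp8 (GRCm38.p6, chr7:123462044-123462293, plus strand): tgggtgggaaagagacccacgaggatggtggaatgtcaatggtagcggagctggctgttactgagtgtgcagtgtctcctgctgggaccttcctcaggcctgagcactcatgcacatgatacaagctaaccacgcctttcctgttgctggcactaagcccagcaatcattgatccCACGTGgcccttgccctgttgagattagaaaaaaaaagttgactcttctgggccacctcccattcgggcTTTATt
The Aqp11 region held 23 CG dinucleotides and 67.2% G or C, and none of the 4 motifs. The Aqp3 region had 14 CG dinucleotides and 1 TATAAA, 29 bases before the start, whose letters also hold the TTTAT match on the other strand. The Aqp8 region had 5 CG dinucleotides, 1 TTTAT match and the palindrome CACGTG, which counts as 2 ACGTG matches. Across 32851 promoter windows of the same length the median was 6 CG dinucleotides and 52.4% G or C. Of these windows 12.4% held TATAAA, 37.3% TTTAT, 10% AGATAA and 16.6% ACGTG. Member windows were taken from chromosomes other than 18, which gave 7 of the 8 members and left out Aqp4. The 3 shown are a choice from 9 such windows, and Aqp1 and Aqp7 were lower in most knockouts too. Among those not shown, the window of Aqp1 and 1 window of Aqp7 also held none of the 4 motifs. The Aqp5 window held 38 CG dinucleotides.

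Aqp1, Aqp3, Aqp7 and Aqp8 had lower values in most knockouts than in the controls, and none of them passed. Aqp1, the water channel of endothelium and red cells, read 189.7, 302, 251, 248 and 256 in knockout H and 254, 199 and 269.7 in knockout L, against 439.8 and 291 in the controls. Only control replicate 1 stood clear of the knockouts, and 7 of 8 knockouts were below both controls. Its adjusted log2 difference was -0.46 ± 0.21 (SE; limma adjusted p = 0.275). It was -0.07 when control replicate 1 was left out and -0.79 when control replicate 2 was. Aqp1 lies on chromosome 6, as Cftr does, with 37.0 Mb between the 2 genes. An effect of strain alleles inherited with the disrupted Cftr on that chromosome and an effect of losing Cftr cannot be told apart.

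Aqp8, a channel of the surface of intestinal absorptive cells that also passes ammonia and hydrogen peroxide, was bright on single arrays only. It read 16.4, 19.1, 14.7, 17.1 and 21.9 in knockout H and 15.7, 16.8 and 50.4 in knockout L, against 24.0 and 119 in the controls. Control replicate 2 and knockout L replicate 3 stood far above the other 8 arrays, which were close to the array medians. The adjusted log2 difference of -0.69 (95% interval -1.65 to 0.27, limma adjusted p = 0.429) turned to 0.18 without control replicate 2. Both high arrays also had high levels of Car1, a carbonic anhydrase typical of colon epithelium, with 5827 in knockout L replicate 3 and 2041 in control replicate 2. Knockout H replicates 1 and 5 had 2682 and 1120 of Car1 with Aqp8 at 16.4 and 21.9, and the other arrays had 10.1 to 240 of Car1. The part of this in the Aqp8 values was not tested.

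Aqp7, an aquaglyceroporin of fat cells and of villus cells, read 11.5, 11.1, 14.0, 15.6 and 18.6 in knockout H and 41.1, 11.7 and 16.3 in knockout L, against 60.5 and 28.2 in the controls. Apart from knockout L replicate 1, the knockouts lay near or under the array medians and below both controls. The adjusted log2 difference was -0.83 ± 0.34 (SE; limma adjusted p = 0.215). It was -0.29 without control replicate 1 and -1.29 without control replicate 2. In the lower number range alone, which leaves out all 5 knockouts with upper numbers, the value was -0.87 and passed (limma adjusted p = 0.0395). Knockout L replicate 1 is among those left out. This was the only 1 of 24 limma alternatives in which Aqp7 passed. Knockout L replicate 1 also had the highest enterocyte marker sum among the knockouts, 28048, where the 7 others had 20379 to 25636 and the controls 34730 and 32949. The 5 measured fat cell markers summed to 230 to 1689 in knockouts and 880 and 1215 in controls, highest in knockout H replicate 3, where Aqp7 was 14.0.

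Aqp3, an aquaglyceroporin of basolateral membranes, was dim throughout. Its brightest probe set read 13.7 to 18.4 in the knockouts and 25.3 and 17.7 in the controls, so that 2 knockouts (knockout H replicate 5 and knockout L replicate 3) exceeded control replicate 2. A second probe set gave 12.9 to 16.2 in knockouts and 23.6 and 19.2 in controls. These groups did not overlap, as for 11.7% of all genes tested with knockouts lower. When every probe set was tested separately, its log2 difference was -0.25 and just missed the threshold (limma adjusted p = 0.0523). The remaining 2 read 4.36 to 8.31 over all arrays. For the brightest probe set the adjusted log2 difference was -0.18 (limma adjusted p = 0.351). It was -0.0032 without control replicate 1 and -0.33 without control replicate 2. The knockout values lay under the array medians.

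Aqp5, the apical channel of secretory glands and of alveolar type 1 cells, varied between knockouts rather than between groups. It read 30.8, 71.1, 23.5, 27.4 and 44.5 in knockout H and 26.2, 33.7 and 27.6 in knockout L, against 31.1 and 21.7 in the controls. For Aqp5 the adjusted log2 difference was 0.22 (95% interval -0.48 to 0.93, limma adjusted p = 0.769), and it was -0.08 without knockout H replicates 2 and 5. These 2 arrays were the highest in Aqp5 and also in lung markers. Their sums of 7 alveolar type 1 markers were 2412 and 2072, against 1269 to 1701 in the 6 other knockouts and 1722 and 1660 in the controls. Their sums of 7 alveolar type 2 markers were 6769 and 5571, against 2113 to 4145 in the 6 other knockouts and 3219 and 2907 in the controls. Ager, the receptor that marks alveolar type 1 cells, was 636 and 496 on these arrays and 121 to 244 on the 8 others. The part of lung transcripts in the Aqp5 values was not tested.

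Aqp9, an aquaglyceroporin of hepatocytes and white blood cells, was not measurable here. Its 2 probe sets read 10.4 to 14.0 in knockouts and 10.1 to 15.3 in controls, under the array medians on all 10 arrays, and it did not pass the filter on low values. Of 5 measured hepatocyte markers Alb and Ahsg were under the overall median and Apoh, Ttr and Cyp2e1 were above it, and their sum was 95.9 to 293 in knockouts and 147 and 188 in controls. The 6 neutrophil markers summed to 119 to 268 in knockouts and 114 and 108 in controls. S100a9 and S100a8, the brightest, were above both controls in all 8 knockouts, where 10% of all genes tested were. Csf3r, the next brightest, read 25.4 to 38.6 in knockouts and 31.0 and 28.1 in controls. Of 5 neutrophil markers tested none was called, and 2 had a negative difference.

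Of the 8 members, 7 passed the filter on low values and were tested. In knockout versus control 1 was called higher and 1 lower at a limma adjusted p under 0.05, where 4.31% of all 13644 genes were called (1.52% higher, 2.79% lower). At an unadjusted p under 0.05, Aqp7 joined them, making 3 of 7, where 19.4% of all genes had such a p. The median log2 difference was -0.46 over the 7 members and -0.0047 over all genes. Aqp3, Aqp7 and Aqp8 passed the filter with most knockouts near or under the array medians, so the count and the median over the tested members are a description only.

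**Figure D3:**
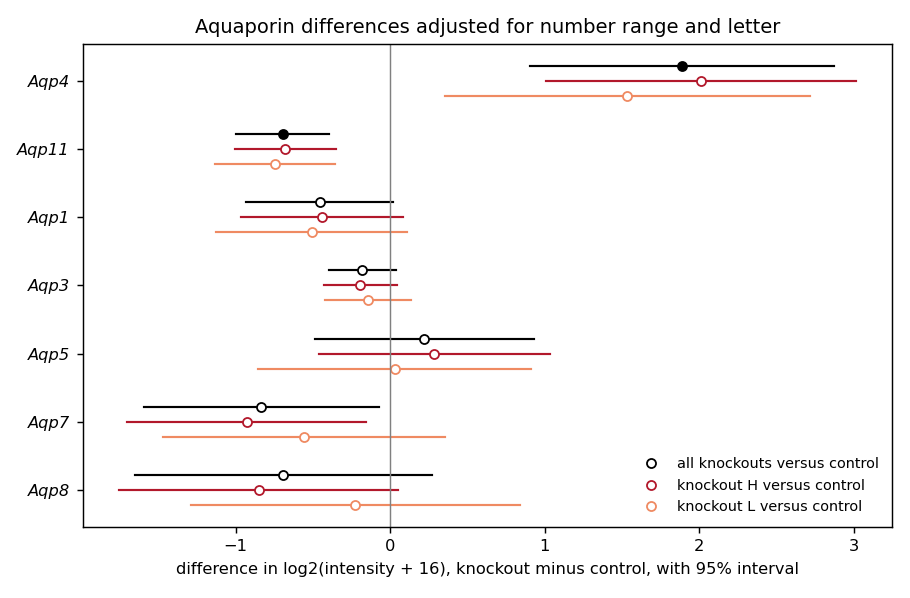
Differences in log2(intensity + 16) between knockouts and controls for the 7 members tested, adjusted for number range and letter, with 95% intervals (lines). Black is all 8 knockouts, dark red knockout H and orange knockout L, each against the same 2 controls, and filled points have a limma adjusted p under 0.05. Only Aqp4 (1.89) and Aqp11 (-0.69) are filled, both for all knockouts, and the intervals of knockout H and knockout L overlap for every member.

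The 2 knockout codes were set apart from the same 2 controls in a fit of 3 groups. Aqp4 differed by 2.01 ± 0.43 on the log2 scale in knockout H versus control (SE; limma adjusted p = 0.0567) and by 1.53 ± 0.51 in knockout L versus control (limma adjusted p = 0.218). Aqp11 differed by -0.68 ± 0.14 in knockout H (limma adjusted p = 0.0532) and by -0.74 ± 0.17 in knockout L (limma adjusted p = 0.0971). Neither code alone took a member past the threshold: 0 of 7 were called in either, where 2.43% of all genes were called for knockout H and 0.344% for knockout L. At an unadjusted p under 0.05 there were 3 members for knockout H, where 17.9% of all genes had such a p, and 2 for knockout L, where 14.4% had. In both codes the control arrays are the same, so the values cannot count as separate observations of the controls.

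Knockout H against knockout L was the direct comparison of the codes. Aqp4 averaged 201 ± 61.4 in knockout H (SD, n = 5) and 142 ± 80.3 in knockout L (n = 3), and the groups overlapped. The adjusted log2 difference was 0.48 with a 95% interval of -0.41 to 1.36 (limma adjusted p = 0.99982), an interval that leaves room for a more than 2-fold higher level in knockout H. Without knockout L replicate 1 the difference was -0.22. Aqp11 differed by 0.07 (95% interval -0.22 to 0.36). Of the 7 members 0 were called by limma, and 0 had an unadjusted p under 0.05, where 0% of all genes were called and 303 of 13644 (2.22%) had an unadjusted p under 0.05.

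The number range, whose meaning the labels do not give, and the letter were each compared as well. The letter matched sex-linked transcripts: Xist was 713 to 1521 on the 4 F arrays and 5.55 to 19.2 on the 6 M arrays, and the Y-linked gene Eif2s3y was 3.60 to 4.58 on F arrays and 80.1 to 130.3 on M arrays. Between the upper and the lower range 0 of 7 members were called (0.3% of all genes). Aqp11 had the smallest unadjusted p there, 0.0355, with a log2 difference of 0.32 (limma adjusted p = 0.451). With the letter as the only covariate, its knockout difference was -0.52 (limma adjusted p = 0.0509), and with neither covariate it was -0.54 (limma adjusted p = 0.0405). Aqp4 differed by -0.24 between the ranges (limma adjusted p = 0.869). Between M and F again 0 members were called (0.022% of all genes), and 0 had an unadjusted p under 0.05 (4.83% of all genes).

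Summed marker transcripts of 3 intestinal compartments separated knockouts from controls as Aqp4 and Aqp11 did. The 7 crypt markers summed to 3446 to 4137 in the knockouts and 1915 and 1869 in the controls. Most of that sum is Olfm4 and Prom1, which were called higher as Cd44 was, while the stem cell genes Lgr5 (means of 75.5 in knockouts and 91.8 in controls) and Ascl2 (53.0 in knockouts and 59.6 in controls) were not called. The 8 measured enterocyte markers summed to 20379 to 28048 in the knockouts and 34730 and 32949 in the controls. Of these, Anpep, Fabp2 and Vil1 were called lower, but 3 of 8 had a positive difference. Lgals4, the brightest, read 6687 to 7301 in knockouts and 6837 and 6595 in controls. Apoa4 was above both controls in all 8 knockouts, as were 10% of all genes tested, and did not pass. The 4 measured Paneth cell markers summed to 20604 to 26225 in the knockouts and 16512 and 15097 in the controls, with 3 of 4 differences positive. Only Pla2g2a was called higher, with 6327 to 10080 in knockouts and 1950 and 2042 in controls. Lyz1, the brightest Paneth marker, went the other way, with 5677 to 9662 in knockouts and 9807 and 8896 in controls. Ang4 overlapped, with 2710 to 8058 in knockouts and 3780 and 3584 in controls. Mmp7, the dimmest Paneth marker, was above both controls in all 8 knockouts, as were 10% of all genes tested. The 3 sums kept the groups apart on all 10 arrays, though not every marker in them did. The Paneth sum did so through Pla2g2a, without which the sum of the other Paneth markers overlapped between the groups. The part of the 3 sums in the differences of Aqp4 and Aqp11 was not tested. Among the knockouts, knockout L replicate 1, lowest in Aqp4 with 76.9, had a crypt sum of 3719, and knockout H replicate 4, lowest in the crypt sum with 3446, had an Aqp4 of 137. Of other cells known to hold Aqp4, gastric parietal cells had 2 of 3 markers under the overall median (Atp4a 10.9 and Cblif 12.6 on average), and their sum was 52.7 to 66.2 in knockouts and 68.1 and 58.8 in controls. Glia had 3 of 5 measured markers there (Gfap 14.4, S100b 13.5 and Foxd3 12.0 on average). The sum of all 5 was 840 to 1298 in knockouts and 1353 and 1276 in controls. Most of that sum is a single gene, Erbb3, with 770 to 1236 in knockouts and 1266 and 1206 in controls. The 8 endothelial markers summed to 225 to 445 in knockouts and 224 and 245 in controls, highest in knockout H replicate 2, which had the highest Aqp1 (302) among the knockouts. The controls, with Aqp1 at 439.8 and 291, had endothelial sums within or just under the range of the knockouts. The part of endothelium in the Aqp1 values was not tested. Of 5 measured red cell markers 3 were under the overall median, with a mean of 13.7 for Hba-a1.

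**Figure D4:**
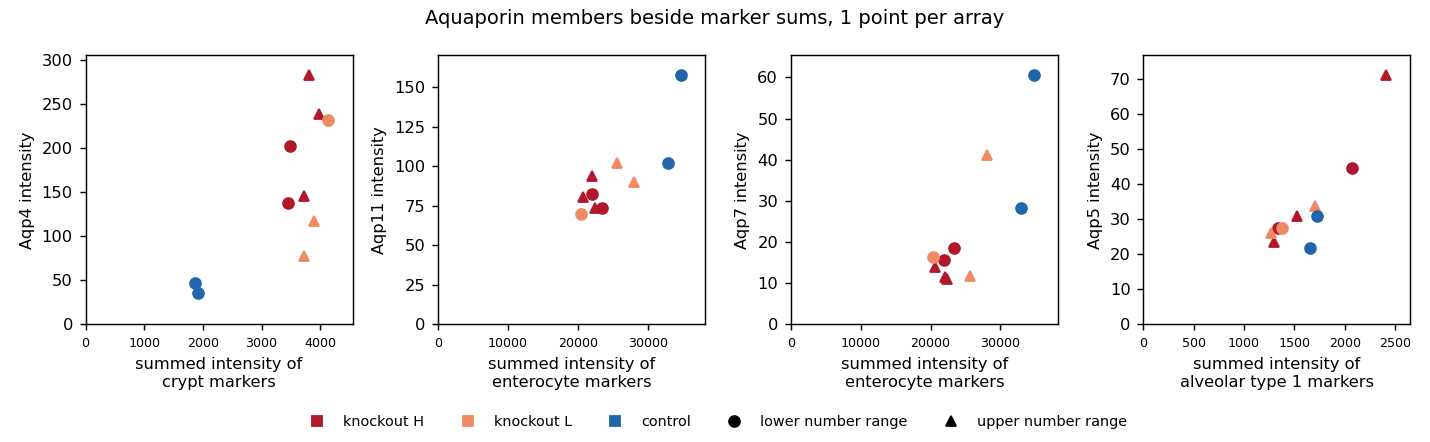
Intensity of Aqp4, Aqp11, Aqp7 and Aqp5 (vertical axes, linear scale) against the summed intensity of crypt, enterocyte, enterocyte and alveolar type 1 markers (horizontal axes, linear scale), with 1 point for each of 10 arrays. Colours give knockout H, knockout L and control, circles the lower and triangles the upper number range. For Aqp4 the controls stand apart in both directions. Beside Aqp11 they stand apart in the enterocyte sum, but control replicate 2 (102.2) and knockout L replicate 2 (102.0) are nearly equal in Aqp11. The 2 arrays highest in Aqp5 (71.1 and 44.5) are also highest in alveolar type 1 markers.

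Genes whose level ran most like that of a member were sought over the 8 knockouts, where the control difference plays no part. For Aqp4 these were Birc7, Lrrc10b and Borcs5, with Pearson r of 0.93 each and Spearman rho of 0.81 to 0.88. For Aqp11 they were Luzp1, Pcnx and Csad (r = 0.98, 0.96 and 0.94), and for Aqp5 Cyp2b10, Tmem212 and Exosc4 (r = 0.98 each). For Aqp1 they were Mrpl36, Khdrbs1 and Mogs (r = 0.95, 0.94 and 0.94) and for Aqp3 1700094J05Rik, Slc32a1 and Prokr1 (r = 0.98, 0.97 and 0.97). Those of Aqp7, 4933404O12Rik, Epb41l4a and Tcim, and of Aqp8, Cabp2, Crybb1 and Sult1a1, had r of 0.93 to 0.94 and 0.98 to 0.99. Without the 2 arrays farthest from a member's median, r was 0.21 to 0.55 for Aqp7. For Aqp8 it was 0.69 for Cabp2, 0.72 for Sult1a1 and -0.29 for Crybb1. The likenesses of Aqp7 and that of Crybb1 thus rest largely on those arrays, and those of Cabp2 and Sult1a1 in part. For Aqp1 this r was 0.70 for Khdrbs1, which also fell, and 0.90 and 0.96 for the others. The same r was 0.88 to 0.95 for Aqp4, 0.86 to 0.96 for Aqp11, 0.87 to 0.96 for Aqp3 and 0.81 to 0.94 for Aqp5. These genes are the highest of all genes tested over only 8 arrays, so the r values carry no test.

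The rest of the family gave no call. Aqp12, known from pancreatic acinar cells, read 25.1 to 36.4 in knockouts and 35.7 and 32.9 in controls, a log2 difference of -0.05 with a limma adjusted p of 0.838. Aqp2, the vasopressin-controlled channel of the kidney, read 14.8 to 20.5 in knockouts and 16.9 and 15.7 in controls (0.08, limma adjusted p = 0.674). Aqp6 and the lens channel Mip did not pass the filter on low values.

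Chloride and fluid transport, the process that creates the gradients water follows, showed changes in 2 of 21 genes tested (25 listed), 1 higher and 1 lower, with a median log2 difference of -0.12. Over all genes 4.31% were called, and the median was -0.0047. Vip, the neuropeptide that drives chloride and water secretion, averaged 280.2 ± 86.0 in the 8 knockouts and 71.9 ± 30.0 in the 2 controls (SD; limma adjusted p = 0.0285). Guca2b, the hormone uroguanylin that opens Cftr through guanylate cyclase C, averaged 732 ± 66.0 in knockouts and 1947 ± 398 in controls (limma adjusted p = 0.00528). For both genes all 8 knockouts were on 1 side of both controls, as for 10% of all genes tested with knockouts higher and 11.7% with knockouts lower. The potassium channel subunit Kcne3 (log2 difference 0.90) and the chloride importer Slc12a2 (0.33), partners of Cftr in secretion, did not pass (limma adjusted p = 0.0689 and 0.0951).

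Glycerol handling, the route that aquaglyceroporins feed and drain, had 3 of 15 tested genes lower and 0 higher (16 listed, median log2 difference -0.25), where 2.79% of all genes were called lower. The 4 fat cell markers tested all had negative differences (median -0.37), the enterocyte sum was lower in all 8 knockouts, and the part of either in these genes was not tested. Lipe, the hormone-sensitive lipase that frees glycerol from fat, averaged 69.6 ± 13.4 in the 8 knockouts and 169 ± 13.1 in the 2 controls (SD; limma adjusted p = 0.00807). The triglyceride-building enzymes Dgat1 and Mogat2 were 1.95-fold and 1.68-fold lower (limma adjusted p = 0.00807 and 0.019). All 3 were below both controls in 8 of 8 knockouts, as were 11.7% of all genes tested. They were named for passing in the same comparison, so this adds no separate support.

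Anchors and regulators of aquaporins had 2 of 18 tested genes past the threshold (19 listed, median -0.02), against 4.31% of all genes. Ezr, ezrin, which ties membrane proteins to the cytoskeleton, averaged 1480 ± 158 in knockouts and 2221 ± 83.3 in controls (limma adjusted p = 0.0363). Nedd4, a ubiquitin ligase of membrane proteins, differed by 0.39 ± 0.071 (SE) on the log2 scale (limma adjusted p = 0.0226). Its values were above both controls in all 8 knockouts, as were those of 10% of all genes tested. The kinase gene Sgk1, which acts on ion channels, had 354 ± 197 in knockouts and 1015 ± 0.684 in controls and did not pass (log2 difference -1.98, limma adjusted p = 0.136).

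Osmotic response genes had 1 of 12 tested genes past the threshold (13 listed, median 0.03), against 4.31% of all genes. Slc6a6, the taurine transporter, averaged 419 ± 25.5 in knockouts and 557 ± 11.5 in controls (limma adjusted p = 0.0168). Slc38a2, an amino acid transporter induced by hypertonicity, had the next smallest p and did not pass (log2 difference 0.23, limma adjusted p = 0.249). Genes of hydrogen peroxide, a cargo of Aqp3, Aqp8, Aqp9 and Aqp11, had 2 of 13 tested genes called (18 listed, median 0.09), against the same 4.31%. Duoxa2, the maturation factor of the peroxide-producing dual oxidase, averaged 193 ± 67.9 in knockouts and 48.9 ± 12.8 in controls (limma adjusted p = 0.0348). Gpx4, a lipid peroxide-reducing enzyme, averaged 834 ± 34.6 in knockouts and 1111 ± 20.2 in controls (limma adjusted p = 0.0255).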

How the data were processed

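Total RNA was labelled with biotin and hybridised to oligonucleotide arrays, per the labels. The authors deposited 1 intensity per probe set and array on a linear scale; which software summarized, corrected and normalized it is not given in the sources used here. Medians of the arrays were 18.4 to 18.8 and the highest 75th percentile was 1.07 times the lowest, and the values were not normalized again. No pair of arrays held identical values. Arrays have no read depth; the number of arrays, above all 2 controls, limits the precision. Titles give every array another animal number, the sole basis for treating arrays as separate animals; otherwise the p-values would reflect technical spread.

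The file held 45101 probe sets, of which 64 array controls were dropped. The platform annotation lists 1 gene symbol for 34945 of the others, several for 932 and none for 9160, and those with several name no gene here; 34741 symbols were brought up to date by gene identifier from RefSeq's GRCm38.p6 gene list. Each of 18193 genes is represented by its brightest probe set, by mean log2(intensity + 16). Genes at or under the 25th percentile of that mean (an intensity of 13.6) were not tested, leaving 13644. The pseudocount understates the differences of dim genes.

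The models of limma 3.58.1, run in R 4.3.3 with lmFit and eBayes, included number range and letter as covariates. P-values were adjusted by Benjamini-Hochberg across the 13644 genes, with 0.05 as threshold. Knockout versus control used a fit of knockouts and controls over all 10 arrays. H versus control, L versus control, H versus L, number range and letter came from a single fit with 3 groups. Log2 differences are adjusted for covariates; group means ± SD are plain intensities. The fit was tested on simulated data. Alternatives were other pseudocounts, filters, probe set rules, covariates, scalings, array weights, an exact permutation test, and leaving out each array; leaving out the 2 arrays highest in lung transcripts was added after the data were seen. Files were read with R's data.table (version 1.17.8) and with pandas 2.3.3, and plots were drawn with matplotlib 3.10.9.

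Named were all members, genes of the pathway lists past the threshold in knockout versus control (with fewer than 2 in a list, the 2 with the smallest p), up to 4 of the brightest markers of a cell type, and the 3 genes most like each member over the 8 knockouts. Kcne3, Slc12a2, Sgk1 and the single markers Ager, Ahsg, Gfap, S100b, Foxd3, Hba-a1, Lgr5, Ascl2, Apoa4, Vil1, Xist and Eif2s3y were named outside this rule, after their values were seen. The members and lists were chosen with earlier results of these data known.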

Additional observations from a re-analysis of the deposited data

Results flagged for a closer look

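Single arrays stood far from the other knockouts for 3 members, each by a gap to the nearest array that exceeded Dixon's 95% limit. Aqp8 was 50.4 in knockout L replicate 3, where the next highest of 8 knockouts had 21.9. Aqp7 was 41.1 in knockout L replicate 1, with 18.6 next. Aqp5 was 71.1 in knockout H replicate 2, with 44.5 next. In all 14 sets of values were examined this way (7 members, over all knockouts and over knockout H), and chance sets apart about 1 in 20.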

How the results depend on the processing

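The 2 members called in knockout versus control became 1 with a pseudocount of 64, without a filter on low values, with the letter as the only covariate and without knockout H replicates 2 and 5. They became 0 with the mean over the probe sets of a gene and with every probe set tested separately. In the lower number range alone they became 3, with Aqp7 added. When single arrays were left out the number ranged from 0 to 2, being 0 without knockout H replicate 4, knockout L replicate 3 or either control. In knockout H versus control, where 0 were called, 1 was called without covariates, with the number range only, with the letter only and with the range as a random block, and 2 with genes above the median or with array weights. Leaving out single arrays gave 0 to 1 there. Aqp4 stayed higher in the knockouts in all 26 alternatives (log2 difference 1.30 to 2.23) and had a limma adjusted p under 0.05 in 14 of the 25 that give one. Aqp11 stayed lower in all 26 (-0.88 to -0.41), with such a p in 18 of 25. Signs turned only for differences that were not called: Aqp5 (-0.083 without knockout H replicates 2 and 5, -0.0028 without knockout H replicate 5, -0.034 without control replicate 2), Aqp8 (0.18 without control replicate 2), Aqp4 in H versus L (-0.22 without knockout L replicate 1) and between ranges (0.29 without knockout L replicate 3), and Aqp11 in H versus L (-0.085 without covariates and in the exact permutation test, -0.073 with the range only, -0.024 with the letter only, -0.0197 with the range as a random block, -0.049 without knockout L replicate 3, -0.00074 with only the 2 groups or without either control). Without single arrays these values otherwise reached 0.53 for Aqp5 and -1.72 for Aqp8 (both without control replicate 1), 1.01 for Aqp4 in H versus L (without knockout L replicate 3), 0.22 for Aqp11 in H versus L (without knockout L replicate 1) and -0.43 for Aqp4 between ranges (without knockout H replicate 4). The exact permutation test gave unadjusted p = 0.0222 for Aqp4 and Aqp11 and 0.0444 for Aqp1, Aqp7 and Aqp8. Called genes over the whole array ranged from 0 to 1366 over the alternatives in knockout versus control (588 as reported), from 0 to 878 for knockout H (331), from 0 to 578 for knockout L (47), from 0 to 150 between ranges (41) and from 2 to 10 between letters (3). The causes of these shifts were not tested. No paired analysis was possible because each animal has its own number in the title and the groups share none.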
